A study of Bos taurus with 13 samples.

Results

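The genes *ADORA2A*, *PTGER2*, *PTGER4*, *PDE4A*, *PDE4B*, *PDE4D*, *CREM* and *PRKAR1A* carry a signal that runs from receptors for adenosine and prostaglandin E2 to cyclic AMP and to transcription. They were chosen by name with earlier results of these data known, and all 8 were found among the 16095 named genes of the count tables. The working name of this group also mentions adrenergic signalling, but none of the 8 is an adrenergic receptor, so genes of that receptor family are described beside them. RNA was measured by sequencing of whole blood, taken from the tail vein of Italian Red Pied (Italian Simmental) dairy cows into tubes that fix RNA, with no removal of globin transcripts. The cows came from the upper and lower tails of a ranking by cortisol in milk, with 7 cows in the high group (replicates 1 to 7) and 6 in the low group (replicates 8 to 13) analysed here. The labels name no treatment, age or sampling day, and the groups are tails of a natural distribution in 1 breed, so the comparison is between cows and not between states of the same cow.

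Cyclic AMP is made by adenylyl cyclases when a receptor that couples to a stimulatory G protein is bound by its ligand, and it is broken down by phosphodiesterases. It releases the catalytic subunits of protein kinase A from their regulatory subunits, and the kinase then phosphorylates transcription factors of the CREB family. In leukocytes this pathway is known to restrain inflammatory activation, and the ligands that raise it in blood include adrenaline, adenosine and prostaglandin E2.

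In these cows, a difference between the high and the low group was detected for none of the 8 genes. The largest estimate was a log2 fold change of 0.22 (SE 0.19) for *PTGER4*, the smallest was -0.20 (SE 0.17) for *CREM*, and the values of the groups overlapped for every gene. The level per length ran from 182 ± 15.6 TPM for *PRKAR1A* to 1.92 ± 0.904 TPM for *PDE4D* (SD, n = 13 cows). Single cows stood apart. Replicate 4 of the high group and replicate 13 of the low group lay at opposite ends of the range for *ADORA2A* and *PDE4B*. Several correlations between the genes changed when these cows were left out. Replicate 4 was also the highest cow for many other genes of the pathway, so its place was not particular to the 8.

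Between 11045599 and 28124575 reads per cow were counted on named genes, so that a gene with 0 counts could still have a level of up to 3 counts, or between 0.107 and 0.272 CPM (counts scaled to the size of the library). This limit covers counting error only. Neutrophil, monocyte, T cell, B cell, cytotoxic cell, eosinophil, platelet, red cell and plasma cell markers were all detected, and no marker in the files was at 0 in every cow. The erythroid score, the mean centred log2 CPM of 5 markers, was higher by 1.06 in the high group (exact two-sided permutation p = 0.0204, adjusted p = 0.184 over 9 scores), and the summed CPM of the 9 of 12 markers in the files was 375 to 7837 for high cows against 138 to 571 for low cows. The neutrophil score was lower by 0.23 in the high group (exact two-sided permutation p = 0.0676, adjusted p = 0.304 over 9 scores). It used 8 of 14 markers in the files, none at 0, with a summed CPM between 4391 and 8825 in the high group and between 6995 and 9851 in the low group. In whole blood, fewer cells of a type and less RNA per cell cannot be told apart.

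*ADORA2A* encodes an adenosine receptor that couples to the stimulatory G protein and raises cyclic AMP in neutrophils and lymphocytes. It lies on chromosome 17 at 73576018-73589968 (UMD3.1, minus strand) with 3 exons of 1487 bases. Its level in the high group had a lowest value of 22.5 CPM, a median of 32.0 and a highest of 36.7, and in the low group a lowest value of 23.1, a median of 31.0 and a highest of 45.7. The lowest cow of all was replicate 4 of the high group and the highest was replicate 13 of the low group, with the other 11 cows between them in a shared range. The log2 fold change, positive where the high group was higher, was -0.073 (SE 0.16, 95% interval -0.41 to 0.27), and neither edgeR's quasi-likelihood test (p = 0.656) nor an exact permutation test (two-sided p = 0.772) separated the groups.

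*PTGER2* and *PTGER4* encode the prostaglandin E2 receptors EP2 and EP4, which both couple to the stimulatory G protein. *PTGER2* lies on chromosome 10 at 11773706-11786080 (UMD3.1, minus strand) and *PTGER4* on chromosome 20 at 33762479-33774648 (UMD3.1, minus strand), each with 2 exons. *PTGER2* rested on only 34 to 138 counts per cow, with a lowest, median and highest value of 2.20, 2.65 and 4.75 CPM in the high group and 2.04, 3.52 and 5.28 CPM in the low group. Within the high group, replicates 2, 3 and 4 were between 4.09 and 4.75 CPM and the other 4 cows were at 2.65 CPM or less. *PTGER4* was counted 899 to 3557 times per cow, with 80.7, 105 and 160 CPM as lowest, median and highest value in the high group and 69.9, 105 and 136 CPM in the low group. The same 3 high cows had the highest *PTGER4* values of all 13, and replicate 13 of the low group had the lowest value of both receptors. The medians of *PTGER4* were nearly equal, and the 3 high cows above the low median were these same ones. By edgeR's quasi-likelihood test the log2 fold change was -0.12 (SE 0.28, 95% interval -0.71 to 0.47, p = 0.669, exact two-sided permutation p = 0.738) for *PTGER2* and 0.22 (SE 0.19, 95% interval -0.18 to 0.61, p = 0.259, exact two-sided permutation p = 0.339) for *PTGER4*. Both differences were within the spread of the cows.

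The phosphodiesterases of the PDE4 family hydrolyse cyclic AMP and are the main such enzymes of many leukocytes. *PDE4A* lies on chromosome 7 at 16176856-16215655 (UMD3.1, plus strand, 18 exons), *PDE4B* on chromosome 3 at 79284893-79734224 (UMD3.1, minus strand, 16 exons) and *PDE4D* on chromosome 20 at 20268721-20321935 (UMD3.1, plus strand, 10 exons). The entry of *PDE4D* covers 53215 bases with 1755 bases of exon, against 449332 bases and 4425 bases of exon for *PDE4B*, and a level per length rests on these gene models. Whether reads from stretches that the paralogs share were split among them is not given in the sources used here. *PDE4A* had 29.8, 37.4 and 50.7 CPM as lowest, median and highest value in the high group and 26.1, 36.8 and 42.5 CPM in the low group. *PDE4B* had 127, 147 and 239 CPM in the high group and 105, 151 and 180 CPM in the low group, in the same order. *PDE4D*, on 11 to 67 counts per cow, had 1.43, 1.68 and 4.21 CPM in the high group and 0.991, 1.88 and 3.23 CPM in the low group. For *PDE4B* and *PDE4D* the highest cow was replicate 4 of the high group, while the medians of both genes were lower in the high group than in the low group. By edgeR's quasi-likelihood test the log2 fold change was 0.11 (SE 0.14, p = 0.438) for *PDE4A*, 0.064 (SE 0.15, p = 0.673) for *PDE4B* and 0.033 (SE 0.32, p = 0.919) for *PDE4D*, and the exact two-sided permutation p was 0.464, 0.733 and 0.934. The estimates of *PDE4B* and *PDE4D* became -0.15 and -0.26 without replicates 4 and 13, so no direction can be given for either.

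The balance among the 3 phosphodiesterases did not separate the groups either. *PDE4B* held 71.9 ± 5.29% of their summed TPM in the high group (SD, n = 7) and 72.6 ± 5.55% in the low group (SD, n = 6), with an exact two-sided permutation p of 0.815. *PDE4A* held 25.8 ± 5.54% and 25.0 ± 5.10% (exact permutation p = 0.777), and *PDE4D* held 2.34 ± 0.666% and 2.47 ± 0.879% (exact permutation p = 0.756). These shares are taken within each cow and do not depend on the scaling between libraries.

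*PRKAR1A* encodes the regulatory subunit RI alpha of protein kinase A, which holds the catalytic subunits inactive until cyclic AMP binds. It lies on chromosome 19 at 62317497-62328889 (UMD3.1, minus strand) with 10 exons of 1327 bases. The high group had 123, 152 and 166 CPM as lowest, median and highest value, and the low group 137, 150 and 164 CPM. The highest cow was only 1.35 times the lowest, and the low group lay wholly inside the range of the high group. Its log2 fold change was -0.029 with the narrowest interval of the 8 genes, -0.22 to 0.16 (SE 0.088, edgeR's quasi-likelihood test p = 0.743, exact two-sided permutation p = 0.664).

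*CREM* encodes a CREB family factor that binds cyclic AMP response elements and has repressor isoforms, among them one that cyclic AMP itself induces. It lies on chromosome 13 at 18496784-18563503 (UMD3.1, minus strand) with 11 exons, and the counts are summed over its isoforms. It had 31.0, 43.9 and 56.3 CPM as lowest, median and highest value in the high group and 35.1, 51.1 and 63.2 CPM in the low group. In the high group 6 of 7 cows were below the low median, although replicates 12 and 13 of the low group were at the low end too. The log2 fold change of -0.20 (SE 0.17, 95% interval -0.55 to 0.15) was not past the threshold by edgeR's quasi-likelihood test (p = 0.245) or by an exact two-sided permutation test (p = 0.300).

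**Figure D1:**
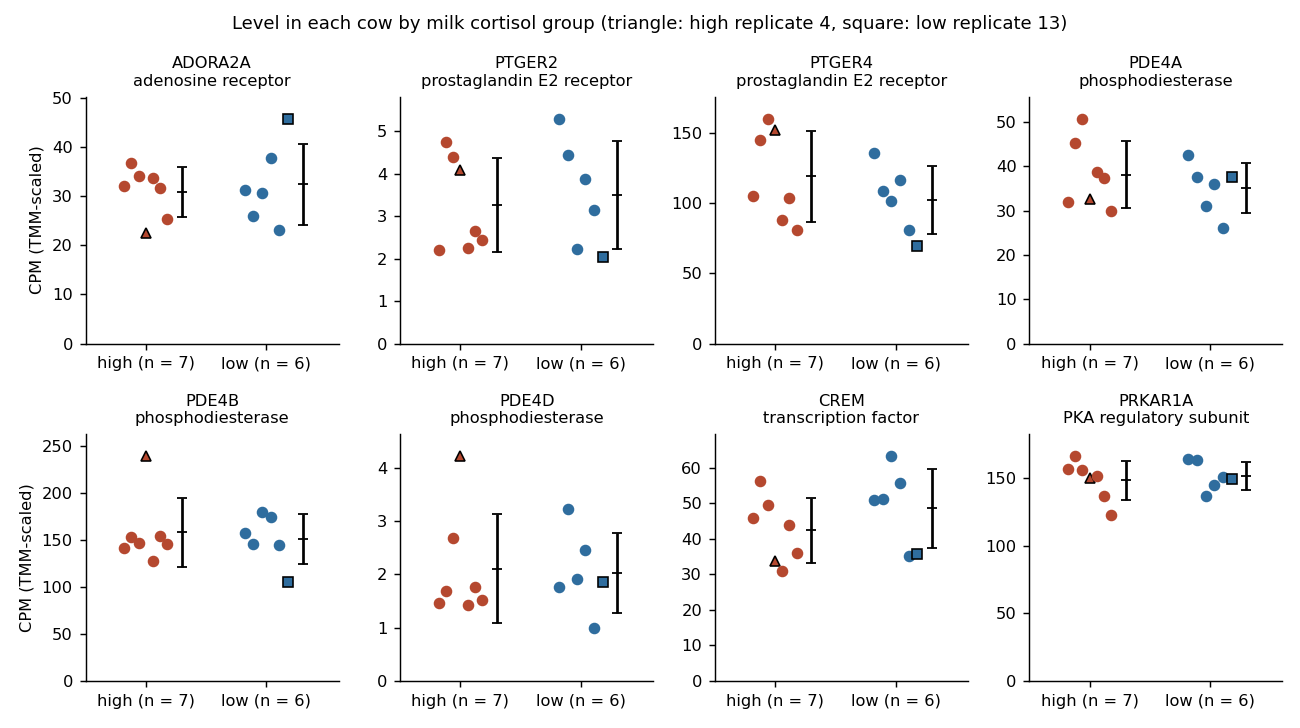
The 8 genes in each cow, with CPM after TMM scaling on the vertical axis from 0, high cows in red and low cows in blue, and bars for the mean ± SD of the group (n = 7 and n = 6). The groups overlap in every panel, and the triangle (high replicate 4) and the square (low replicate 13) mark the ends of the range for *ADORA2A* and *PDE4B*.

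After Benjamini-Hochberg adjustment over the 11033 genes tested, an adjusted p below 0.05 was reached by 0 of the 8 genes in edgeR's quasi-likelihood test, and the adjusted p was 0.999 for each. Over all genes tested the share that passed was 0%. At an unadjusted p below 0.05, 0 of the 8 genes passed, against 2.09% of all genes tested, and DESeq2 gave 0 of the 8 as well. CPM ranges that did not overlap between the groups were found for 0 of the 8 genes and for 0.0272% of all genes tested. The median log2 fold change of the 8 was 0.0019, with 4 positive and 4 negative values, and that of all genes tested was 0.013. The 95% interval around the estimate ran from 0.861 to 1.12 fold for *PRKAR1A* and from 0.640 to 1.64 fold for *PDE4D*. These intervals do not give the smallest change that would have passed the adjusted threshold.

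**Figure D2:**
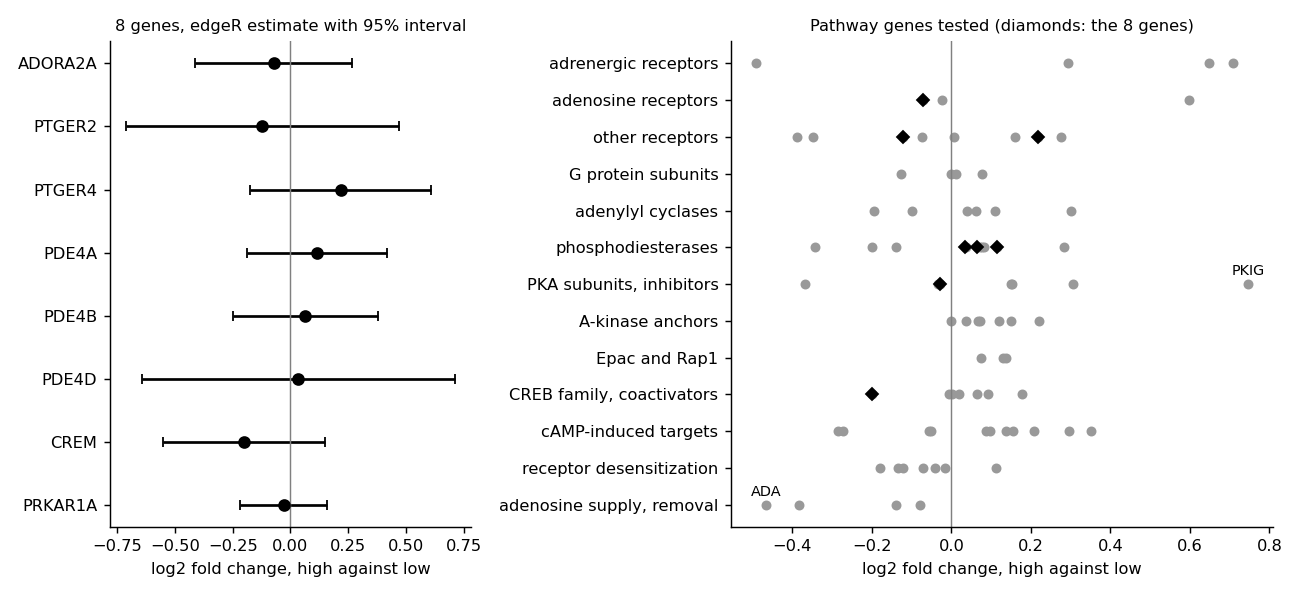
Log2 fold change of the high against the low group, on the left for the 8 genes with the 95% interval of edgeR's estimate, on the right for each tested gene of the pathway lists (grey points) with the 8 genes as diamonds. Every interval on the left includes 0, and on the right *PKIG* at 0.75 and *ADA* at -0.47 are labelled as those with an unadjusted p below 0.05.

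The adrenergic receptors are the receptors through which adrenaline and noradrenaline act. *ADRB1*, *ADRA1B* and *ADRB3* passed the filter on low counts but were scarce in blood. Their log2 fold changes were 0.65 (SE 0.47) for *ADRB1*, 0.71 (SE 0.42) for *ADRA1B* and -0.49 (SE 0.43) for *ADRB3*, with unadjusted p of 0.188, 0.112 and 0.272 and an adjusted p of 0.999 for each by edgeR's quasi-likelihood test. None of these estimates was past the threshold. *ADRA1A* and *ADRA1D* had 0 counts in every cow, which allows at most 0.272 CPM in the shallowest library, and *ADRA2B* had at most 4 counts. *ADRA2A* and *ADRA2C* were not analysed here.

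Other genes of the pathway were taken from 13 lists of receptors, G protein subunits, adenylyl cyclases, phosphodiesterases, kinase subunits and inhibitors, anchoring proteins, exchange factors, CREB family members, induced targets, desensitization factors and adenosine enzymes. The lists held 117 genes, the 8 included, of which 105 were in the files and 82 were tested. None of the 82 passed an adjusted p of 0.05. At an unadjusted p below 0.05, 1 was higher and 1 was lower in the high group, against 0.934% and 1.16% of all genes tested in the same directions, and the median log2 fold change was 0.038. The gene with the higher value was *PKIG*, an inhibitor of the catalytic subunit of protein kinase A, with 1.56, 1.80 and 2.75 CPM as lowest, median and highest value in the high group and 0.721, 1.10 and 1.65 CPM in the low group. All 7 high cows were above the low median, on 10 to 47 counts per cow, and the log2 fold change was 0.75 (SE 0.25, edgeR's quasi-likelihood test p = 0.00981, exact two-sided permutation p = 0.00117, adjusted p = 0.999). The gene with the lower value was *ADA*, adenosine deaminase, which removes adenosine, with 47.8, 66.1 and 104 CPM in the high group and 68.7, 89.9 and 154 CPM in the low group in the same order. In the high group 6 of 7 cows were below the low median of *ADA*, and the log2 fold change was -0.47 (SE 0.19, edgeR's quasi-likelihood test p = 0.0270, exact two-sided permutation p = 0.0559, adjusted p = 0.999). Replicate 13 of the low group had the lowest *PKIG* and the highest *ADA* value, and replicate 4 of the high group had the highest *PKIG* value. All 4 tested genes of the list of adenosine supply and removal, which held 7, had negative estimates, from -0.47 to -0.079. Only that of *ADA* had an unadjusted p below 0.05 in edgeR's test. Other lists leaned to 1 side too. Positive were 3 of 3 tested genes of the list of Epac and Rap1, and 6 of 7 anchoring proteins. Of the desensitization factors, 6 of 7 were negative.

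To compare levels between genes, counts were divided by exon length and scaled to a common total over named genes, which gives TPM, the level per length. *PRKAR1A* had the highest level of the 8 with 182 ± 15.6 TPM (SD, n = 13), more than that of 91.9% of the genes tested. *PTGER4* (63.8 ± 18.1 TPM), *PDE4B* (56.6 ± 13.9 TPM) and *CREM* (49.0 ± 10.7 TPM) followed, then *ADORA2A* (34.0 ± 6.14 TPM) and *PDE4A* (19.4 ± 3.54 TPM), and at the end *PTGER2* (2.19 ± 0.755 TPM) and *PDE4D* (1.92 ± 0.904 TPM). The last pair stood at the 12.6th and 11.2th percentile of the genes tested. In an exact two-sided sign-flip test within cows, 4 of the 7 steps between neighbours passed an adjusted p of 0.05. *PRKAR1A* was above *PTGER4* by 1.56 on the log2 scale in 13 of 13 cows, *ADORA2A* above *PDE4A* by 0.81 in 13 of 13, and *PDE4A* above *PTGER2* by 3.21 in 13 of 13, each with an adjusted exact p of 5.7e-04. *CREM* was above *ADORA2A* by 0.51 in 11 of 13 cows (adjusted exact p = 0.00214). The steps from *PTGER4* to *PDE4B* (0.15, 9 of 13 cows, adjusted exact p = 0.100), from *PDE4B* to *CREM* (0.21, 8 of 13 cows, adjusted exact p = 0.0673) and from *PTGER2* to *PDE4D* (0.23, 9 of 13 cows, adjusted exact p = 0.167) did not pass. In a test of all 28 pairs, added after the levels had been seen, *PTGER4* was above *CREM* by 0.36 in 12 of 13 cows (adjusted exact p = 0.00219), so that *PDE4B* could be placed apart from neither while *PTGER4* and *CREM* differed. The order rests on the exon lengths: without division by length, *PDE4A* was above *ADORA2A* by 0.22 in 11 of 13 cows (adjusted exact p = 0.0140), and *PRKAR1A* and *PDE4B* were not separated (0.024, adjusted exact p = 0.789).

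**Figure D3:**
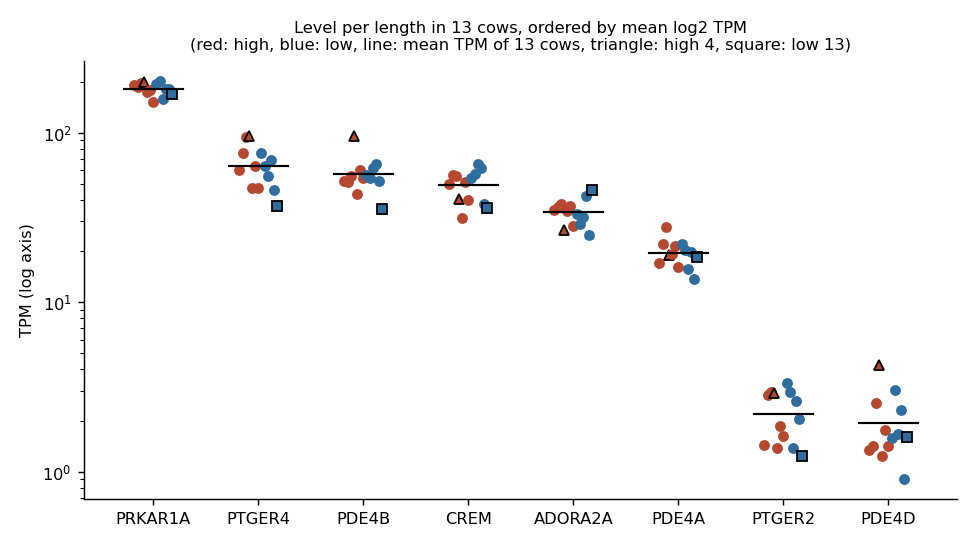
Level per exon length of the 8 genes in each of 13 cows, in TPM on a log axis, ordered by the mean of log2 TPM, with a line at the mean TPM. *PRKAR1A* stands above all others, *PTGER4*, *PDE4B* and *CREM* share a range, and *PTGER2* and *PDE4D* are near 2.19 and 1.92 TPM.

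For scale, levels of other genes of the pathway are given here, each the gene with the highest mean TPM of its list. Among these top genes, *GNAI2*, *GRK2*, *RAP1B* and *RGS2* were above all of the 8. The rest of the top genes given here were below *PRKAR1A*. Further genes of the lists, not named here, were above *PRKAR1A* too. *GNAI2*, the inhibitory G protein subunit, was at 1243 ± 150 TPM, *GRK2*, a kinase that desensitizes receptors, at 538 ± 73.1, *RAP1B*, a small GTPase downstream of the exchange factor Epac, at 288 ± 111, and *RGS2*, an inducible regulator of G protein signalling, at 201 ± 85.5 TPM. Among adenosine receptors the highest was *ADORA2B* at 95.8 ± 10.3 TPM, above *ADORA2A*. *ADA* was at 87.4 ± 26.5 TPM, *ADCY7*, an adenylyl cyclase, at 85.7 ± 14.9 and the anchor *AKAP5* at 40.1 ± 10.5 TPM. Of prostanoid, amine and peptide receptors, phosphodiesterases, kinase subunits and CREB family members, the highest were *PTGER4*, *PDE4B*, *PRKAR1A* and *CREM* themselves.

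The spread among cows was not the same for the 8 genes. The SD of log2 CPM over the 13 cows was 0.123 for *PRKAR1A*, smaller than that of all but 3.12% of the genes tested, and it was 0.259 for *PDE4A*, 0.274 for *PDE4B*, 0.292 for *ADORA2A*, 0.330 for *CREM*, 0.378 for *PTGER4*, 0.479 for *PTGER2* and 0.522 for *PDE4D*. The median over all genes tested was 0.305. Since genes with few counts spread more, each was also ranked among about 1103 genes of like mean level: *PTGER4* was then at the 90.9th percentile, *CREM* at the 78.7th and *PDE4B* at the 73.8th, while *PTGER2* and *PDE4D* were near the middle at 45.6 and 56.1. *PRKAR1A* was at the 7.62th percentile among genes of its own level.

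The ends of these ranges were spread over many cows. Replicate 13 of the low group was highest for 1 gene and lowest for 3. Replicate 4 of the high group was highest for 2 and lowest for 1. Replicate 4 of the high group deviated from the mean of the 13 cows by 0.445 on the log2 scale on average over the 8 genes, the largest value, and replicate 6 of the high group by 0.086, the smallest. In replicate 4 *PDE4D* was 1.08, *PDE4B* 0.65 and *PTGER4* 0.49 above the mean, while *ADORA2A* was 0.46 and *CREM* 0.38 below it. Replicate 13 of the low group was the reverse for several genes, with *ADORA2A* 0.56 above the mean and *PTGER4* 0.63, *PTGER2* 0.62 and *PDE4B* 0.53 below it. The monocyte score was 0.470 in replicate 4 and -0.272 in replicate 13 while the eosinophil score was low in both, at -0.415 and -0.777, and lower still in replicate 12 of the low group, at -0.927. The part of these cell types in the values of the 2 cows was not tested. Replicate 4 also had the highest CPM of many other pathway genes, among them *RAP1B* (645 CPM) and *ADCY7* (421 CPM). Its extremes were therefore not particular to the 8 genes, and its mean deviation over all genes tested is not given here.

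Correlations of log2 CPM over the 13 cows were computed for the 28 pairs of the 8 genes, with 100000 permutations. They were positive for 22 pairs and negative for 6, with a median r of 0.37, where that of all 60858028 pairs of tested genes was -0.0025. None passed after Benjamini-Hochberg adjustment over the 28 pairs. At an unadjusted permutation p below 0.05 there were 7 pairs (25%), all positive, and an absolute r of that size was found in 20.5% of all gene pairs. The largest was that of both prostaglandin E2 receptors, *PTGER2* and *PTGER4*, with Pearson's r = 0.785 (permutation p = 0.00239, adjusted p = 0.0669) and Spearman's rho = 0.747 (permutation p = 0.00480, adjusted p = 0.134). It was 0.913 within the high group and 0.793 within the low group, 0.723 without the 2 cows farthest from the *PTGER2* median, and between 0.741 and 0.828 with 1 cow left out. An absolute r at least as large was found in 3.66% of all gene pairs. With each group centred on its own mean, r was 0.852 and the adjusted permutation p was 0.0204.

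The other pairs at an unadjusted permutation p below 0.05 were *PTGER4* with *PDE4B* (r = 0.633), *PDE4D* (0.589) and *PDE4A* (0.588), *PTGER2* with *PRKAR1A* (0.586), *ADORA2A* with *PDE4A* (0.564) and *PDE4B* with *PDE4D* (0.556). Thus 4 of the 7 pairs included *PTGER4*. Leaving out replicates 4 and 13 together took *PTGER4* with *PDE4B* to r = 0.292 (permutation p = 0.388). In the same 11 cows *PTGER4* had r = 0.573 with *PDE4D*, and its r with *PDE4A* rose to 0.866. The correlation of *PDE4B* and *PDE4D* rested on replicate 4 of the high group and was 0.207 without it. The most negative pair, *ADORA2A* and *PDE4B* (r = -0.535, permutation p = 0.0565, adjusted p = 0.198; rho = -0.269, permutation p = 0.372), rested on replicates 4 and 13 and was 0.256 without them.

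Leaving out replicate 4 of the high group and replicate 13 of the low group together was tried after their values had been seen. In the other 11 cows 26 pairs were positive and 2 negative, with a median r of 0.46, and 10 had an unadjusted permutation p below 0.05. Values over all pairs of tested genes were not computed for these 11 cows. The counts and the median r there cannot be read as a trait of these genes. The correlation of *ADORA2A* and *PTGER4* went from -0.080 to 0.641 (adjusted permutation p = 0.135), and that of *PDE4B* and *CREM* from 0.242 to 0.800 (adjusted permutation p = 0.0412). *PTGER4* and *PDE4A* had r = 0.866 in the 11 cows (adjusted permutation p = 0.0224), while *PTGER2* and *PTGER4* had r = 0.737 (adjusted permutation p = 0.120). The pairs that passed therefore depended on which cows were in the set.

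**Figure D4:**
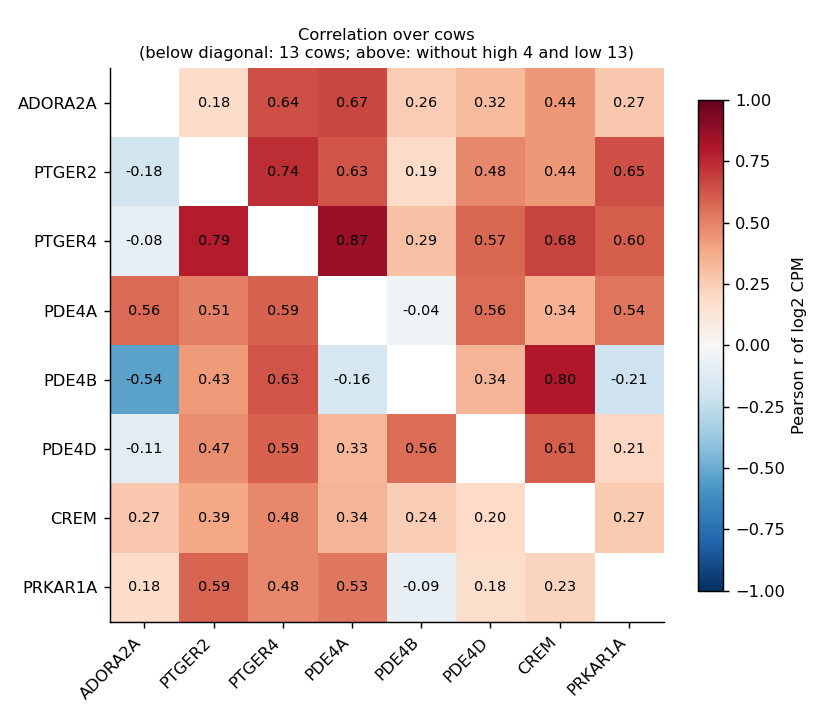
Pearson's r of log2 CPM for each pair of the 8 genes, below the diagonal over 13 cows and above it over 11 cows, without high replicate 4 and low replicate 13. *PTGER2* and *PTGER4* are at 0.785 below the diagonal, and *ADORA2A* and *PDE4B* go from -0.535 to 0.256.

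Because blood is a mixture, the 8 genes were also compared over cows with the scores of 9 cell types, each the mean centred log2 CPM of a marker list. Of 72 relations, 0 passed an adjusted p of 0.05 (smallest adjusted permutation p 0.0713) and 12 had an unadjusted permutation p below 0.05, 10 positive and 2 negative. The matching share over all genes tested was not computed, so this count cannot be read as a trait of the 8. The highest r was that of *PTGER4* with the monocyte score, which used 9 of 10 markers, none at 0 (r = 0.782, permutation p = 9.9e-04, adjusted p = 0.0713; rho = 0.808, permutation p = 0.00144). It was 0.802 within the high group, 0.941 within the low group and 0.776 without the 2 cows farthest from the median score. The difference in the monocyte score between the groups was within its spread (0.077 higher in the high group, exact two-sided permutation p = 0.683), with a summed marker CPM between 3842 and 9186 in the high group and between 3735 and 8427 in the low group. *PTGER2* (r = 0.610), *PRKAR1A* (0.605) and *PDE4B* (0.570) were also positively related to the monocyte score at an unadjusted permutation p below 0.05, and none of these passed adjustment. The neutrophil score went with *PTGER2* (r = 0.574), *PRKAR1A* (0.572) and *CREM* (0.560), and the eosinophil score, from 4 tested markers, with *PTGER4* (0.663), *PDE4A* (0.657) and *CREM* (0.604). Negative relations at this level were those of *PTGER4* with the plasma cell score (r = -0.638) and of *PDE4D* with the B cell score (r = -0.552). *ADORA2A* had no relation with an unadjusted permutation p below 0.05. How much of the spread of each gene is due to cell numbers was not tested, since no cell counts were used.

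**Figure D5:**
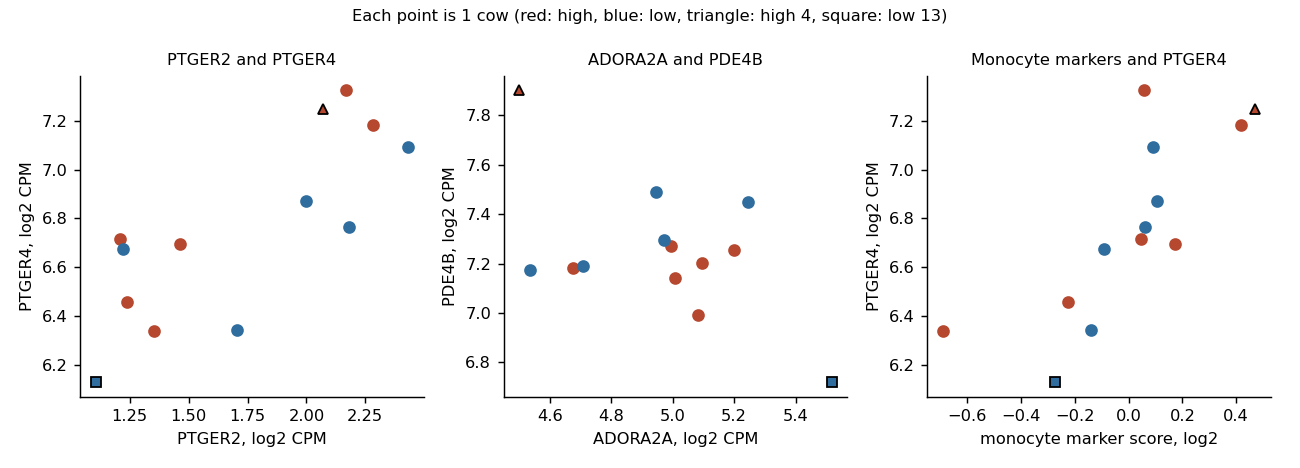
Relations over 13 cows in log2 CPM, with *PTGER2* against *PTGER4* (r = 0.785), *ADORA2A* against *PDE4B* (r = -0.535) and the monocyte marker score against *PTGER4* (r = 0.782). Each point is 1 cow, red for high and blue for low, and in the middle panel the triangle (high replicate 4) and the square (low replicate 13) lie apart from the other 11 cows.

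The genes most like each of the 8 over the 13 cows were taken from all genes tested by Pearson's r of log2 CPM, as a description. For *ADORA2A* they were *PISD* (r = 0.889), *RPH3AL* (0.886) and *CD99* (0.880), for *PTGER2* *MGAM* (0.907), *HIST2H2BE* (0.888) and *PACSIN2* (0.885), and for *PTGER4* *SECISBP2* (0.911), *SIAH1* (0.908) and *DGKG* (0.899). For *PDE4A* they were *TNFSF14* (0.938), *HK3* (0.915) and *PLD3* (0.910), for *PDE4B* they included *Mail* (0.941) and *SNORA43* (0.918), and for *PDE4D* *FBXO33* (0.899) and *FAM126A* (0.899). For *CREM* they were *NUDT3* (0.925), *MKRN1* (0.906) and *TARS* (0.904), and for *PRKAR1A* *SLC35F6* (0.868), *ASRGL1* (0.862) and *PVRL1* (0.856). None of these genes was in the pathway lists. The median, over all genes tested, of the highest r that a gene has with another was 0.917, so partners as close as these were usual.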

How the data were processed

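The authors deposited whole-number counts of reads per gene name for each cow. The headers of the deposited tables give featureCounts 1.4.6-p3 and Ensembl release 88 gene models on UMD3.1, with exons summed by gene name and no option for strand, while the submitters' processing notes name STAR 2.7.3, Subread 1.6.5 and ARS-UCD1.2. The header of each table also names another animal number than the table itself does, and its folder is named for goat, so groups rest on the sample labels alone. The entry without a gene name (13.9% to 16.7% of counts) was left out. Identical counts were found in 0 of 78 pairs of libraries.

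TMM-scaled CPM, log2 CPM (prior count 2) and TPM, from the deposited exon lengths, were computed from the counts. Groups were compared with edgeR 4.0.16 in R 4.3.3 (robust quasi-likelihood test, filterByExpr with minimum count 10 and minimum total 15, no covariates), with Benjamini-Hochberg adjustment. DESeq2 1.42.0, limma-voom (limma 3.58.1), other scalings and filters, a fit that is not robust, covariates and each cow left out were the alternatives. Exact tests used all 1716 splits of 7 against 6 cows (smallest p 5.8e-04) or 8192 sign flips, and correlations 100000 permutations. The fit was tested on simulated counts.

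The genes and lists were chosen with earlier results of these data known. The text names the 8 genes, adrenergic receptors, pathway genes with an unadjusted p below 0.05, the gene of highest TPM in each list, and the 3 genes most like each of the 8, and some genes that this rule names are not reported here.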

Additional observations from a re-analysis of the deposited data

Results flagged for a closer look

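*PDE4B* in replicate 4 of the high group was at 7.90 log2 CPM, far from the other 6 cows of its group, of which the highest was at 7.27. The gap was 0.696 of the range of the group. It was the only flag among 44 comparisons of the highest or lowest cow (8 genes and 3 shares in both groups), and at the 5% level about 1.1 of the 22 sets of values would be flagged by chance. The same cow had the highest *PDE4D* and *PKIG* values, and the highest of many other pathway genes, such as *RAP1B* and *ADCY7*.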

How the results depend on the processing

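An adjusted p below 0.05 was reached by none of the genes under any alternative. At an unadjusted p below 0.05 there was 1 exception, *PTGER4* in edgeR's quasi-likelihood test with the neutrophil score minus the T cell score as a covariate, with a log2 fold change of 0.36, an unadjusted p of 0.0472 and an adjusted p of 1.00. *PTGER4* (0.060 to 0.36), *PDE4A* (0.076 to 0.18) and *CREM* (-0.23 to -0.080) kept their direction under every alternative, and with 1 cow left out they were between 0.13 and 0.32, 0.036 and 0.18, and -0.28 and -0.11. The other 5 changed sign. The haemoglobin covariate gave 0.10 for *ADORA2A*, -0.024 for *PDE4D* and 0.078 for *PRKAR1A*, the neutrophil minus T cell covariate gave 0.042 for *PTGER2* and 0.018 for *PRKAR1A*, and limma-voom gave -0.053 for *PDE4D*. Without replicates 4 and 13 together, chosen after seeing the data, *ADORA2A* was 0.11, *PDE4B* -0.15 and *PDE4D* -0.26. With 1 cow left out, the ranges were -0.15 to 0.049 for *ADORA2A*, -0.24 to 0.041 for *PTGER2*, -0.066 to 0.12 for *PDE4B*, -0.23 to 0.20 for *PDE4D* and -0.054 to 0.012 for *PRKAR1A*. The causes of these changes were not tested.

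Over all genes, DESeq2 called 1 gene where edgeR called 0, with 348 at an unadjusted p below 0.05 against 231. That number was 414 without a filter (14377 genes tested), 120 with the haemoglobin covariate, and 191 to 373 with 1 cow left out, highest without replicate 2 (373) and replicate 5 (363) of the high group. In the pathway lists it was 4 in place of 2 without a filter, with the neutrophil minus T cell covariate and without replicate 12 of the low group. Pairs of the 8 genes that passed adjustment numbered 1 with the groups centred, 2 without replicates 4 and 13, and 0 to 2 with 1 cow left out, namely *PTGER2* and *PTGER4* (r = 0.780) with *PDE4B* and *CREM* (r = 0.747) without replicate 4, and *PTGER2* and *PTGER4* alone without replicate 12 (r = 0.828). For the cell type scores the number was 1 with the groups centred and 0 to 1 with 1 cow left out, both *PTGER4* with the monocyte score (r = 0.783, and 0.849 without replicate 3 of the high group). The order of levels gave 4 to 5 steps with 1 cow left out and 6 without division by length, where *PDE4A* stood above *ADORA2A*. The depth limits *PTGER2* and *PDE4D* most, with 34 to 138 and 11 to 67 counts per cow. No paired analysis was possible because the replicate numbers of the groups are not shared.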
